A study of Homo sapiens with 3 samples.

Results

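Of the 20033 protein-coding genes of the GENCODE annotation on the main chromosomes, 240 lie on chromosome 19 and carry a symbol made of ZNF and a number, and these 240 genes were examined for ZBTB11 binding in NCI-H1299 cells. The rule that chose them used the name and position of a gene and no measured value, but it was set with earlier results of these data known. ZBTB11 is itself a zinc finger protein, with a BTB domain, and the study mapped its sites on chromatin by ChIP-seq, in which DNA bound by a protein is pulled down with an antibody and sequenced. NCI-H1299 is an established human lung cancer cell line and is p53-null, and the cells used were WT (wild type) and untreated. An antibody to ZBTB11 (Bethyl) gave the library described here, IgG served as the negative control, and an Input library was not used. With 1 library for each antibody, no comparison below has a replicate check, and every interval is a 95% interval over genes or peaks of the same library, which are not replicates.

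Most of these genes encode proteins with a row of C2H2 zinc fingers, each of which can contact a few bases of DNA, and many of the proteins also carry a KRAB box, which recruits the corepressor TRIM28 and, with it, the histone methyltransferase SETDB1. They arose by repeated local duplication, so neighbours are close relatives, and several are known to silence retrotransposons. Their fingers are usually encoded by the last exon, and chromatin with the repressive histone mark H3K9me3 is known to cover those exons, where ZNF274 is one of the factors known to bind. All 240 members had at least 1 finger in the translated coding sequence of the canonical transcript, with a median of 12 and a highest number of 36, which fits the name of the gene set.

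The ZBTB11 list held 348392 peaks, of which 7554 lay on chromosome 19. A peak was described by the number of sequenced fragments stacked at its summit, solved from its fold enrichment and p-value, and by its −log10 p, where a larger value means a smaller p. On chromosome 19 the median peak had 6 fragments against a genome-wide background of 1.35, and 79.6% of the peaks had a q-value above 0.05, so most listed peaks are weak. A gene was therefore called only where its strongest peak had a p-value of 1e-05 or less. The IgG list held 27877 peaks, of which 26712 lay on 4 of the main chromosomes and none on chromosome 19. Whether that list is complete is not known, so its lack of peaks on chromosome 19 does not show a clean control there. Other protein-coding genes of chromosome 19 therefore served for comparison.

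Of the strongest ZNF promoters, those whose summits carry the CCGGAAG form of the consensus that the study reported for ZBTB11 are shown first. This word holds the GGAA core that ETS family factors are known to recognise. The study found the consensus de novo in high ZBTB11 peaks of this same experiment, so its presence at strong summits is no independent support. Of the 10 members with the smallest promoter p-values, 6 had CCGGAAG within 50 bp of the summit, and ZNF296, ZNF490, ZNF791 and ZNF561 did not. The 30 bases around each site follow in hg38, 5′ to 3′ on the strand named, with the consensus in capitals.
ZNF837 (chr19:58380789-58380818, plus strand): gagcgcgaggaCCGGAAGtgcgcggcgtca
ZNF461 (chr19:36666819-36666848, plus strand): cgaggctcctaCCGGAAGtagctgtggaca
ZNF850 (chr19:36773080-36773109, minus strand): ttccgccgagaaCCGGAAGcacgttttcct
ZNF579 (chr19:55580974-55581003, plus strand): tggctgggaagCCGGAAGcgggaggacggg
ZNF846 (chr19:9768753-9768782, minus strand): tgccgtgcgcaaCCGGAAGcggaagtgcca
ZNF302 (chr19:34677306-34677335, plus strand): gcaggaatgacCCGGAAGaccttggcacgg

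Near the transcript starts, ZBTB11 peaks were frequent and often strong. A peak within 3 kb of any transcript start was listed for 231 of the 240 members (96.2%, Wilson interval 93.0% to 98.0%), against 87.7% of all protein-coding genes. The strongest of these peaks was called in 161 members (67.1%, 60.9% to 72.7%), against 46.9% of all protein-coding genes and 580 of the 1236 other genes of chromosome 19 (46.9%, 44.2% to 49.7%). The difference from the other genes of the chromosome was 20.2 percentage points (Newcombe interval 13.4 to 26.4). With the threshold set on the q-value instead, at 0.05, 179 members passed (74.6%), against 55.3% of all protein-coding genes. A summit of at least 50 fragments was found in 72 members (30%), against 14.8% of all protein-coding genes and 220 other genes of chromosome 19 (17.8%), a difference of 12.2 points (6.32 to 18.6). The median summit had 20 fragments in the members with a peak, with a range of 3 to 515, and 13 fragments in the other genes of the chromosome.

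The excess was not particular to chromosome 19. ZNF genes of the same naming on other chromosomes number 236, and 168 of them were called (71.2%, 65.1% to 76.6%), with a median of 23 fragments. The difference, chromosome 19 minus the rest, was −4.10 points with an interval of −12.3 to 4.19, so that no difference between the ZNF genes of chromosome 19 and those elsewhere was detectable. A summit of at least 50 fragments was found in 70 of these 236 genes (29.7%).

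**Figure D1:**
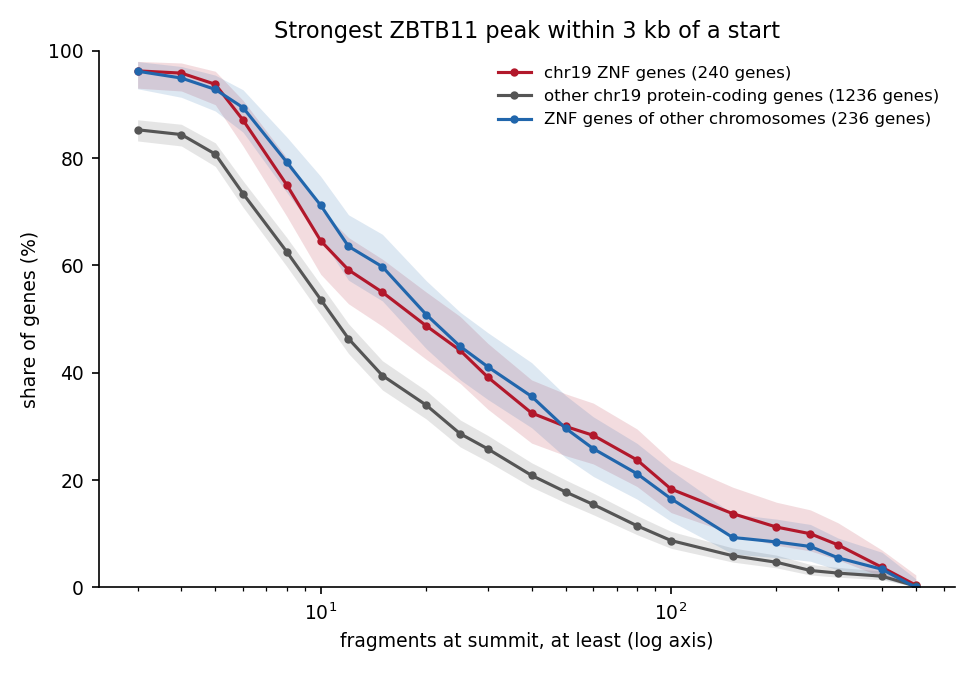
Share of genes (y axis, %) whose strongest ZBTB11 peak within 3 kb of a start has at least the number of summit fragments on the x axis (log axis), for the 240 chromosome 19 ZNF genes, the 1236 other protein-coding genes of chromosome 19 and the 236 ZNF genes of other chromosomes, with shaded Wilson 95% intervals over genes. At 50 fragments the curves stand at 30%, 17.8% and 29.7%, and the ZNF curves run above the curve of the other genes from 3 to 400 fragments.

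The background of chromosome 19 was not even. In bins of 1 Mb, the median local background of the listed peaks was between 2.86 and 3.93 fragments from 32 to 46 Mb, and it was 1.35 at the median of the other bins, with a highest value of 2.40. The stretch holds 57 members. Inside it, 54 members (94.7%, 85.6% to 98.2%) and 190 of 324 other genes (58.6%, 53.2% to 63.9%) were called. Outside it, 107 of 183 members (58.5%, 51.2% to 65.4%) and 390 of 912 other genes (42.8%, 39.6% to 46.0%) were called, and the median summits were 11.5 and 10 fragments. The difference was 36.1 points (25.6 to 42.5) inside and 15.7 points (7.78 to 23.3) outside the stretch, so members were called more often than their neighbours in both, while the size of the difference changed with the stretch. A fold enrichment of 5 or more, which sets the summit against its own local background, was reached by 33.4% of all protein-coding genes, by 40 of the 57 members inside (70.2%) and 81 of the 183 outside (44.3%), and by 31.5% and 30.8% of the other genes. What raises the background there was not tested.

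The largest promoter values belonged to genes of several clusters. ZNF837 had 451 fragments and a −log10 p of 417, which ranks 116 in the whole list. ZNF461 had 496 fragments and a −log10 p of 415, and its summit lay at −26 bp from a start (negative values are upstream). ZNF850 had 435 fragments, ZNF302 had 466, ZNF561 had 398, ZNF846 had 395 and ZNF579 had 387. All 7 of these peaks had 14.7 to 22.6 times more signal than their local background by the fold enrichment of the deposited list. Peaks among the 1000 smallest p-values of the list were found for 33 members (13.8%), against 6.01% of all protein-coding genes.

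Promoter peaks can serve more than 1 gene. The 231 peaks were 224 distinct peaks, as 7 peaks were the strongest of 2 members each, and 33 members shared theirs with a protein-coding gene outside the set. ZNF490 and ZNF791, which start in opposite directions, shared a peak of 413 fragments. ZNF569 and ZNF570 shared one of 498, ZNF580 and ZNF581 one of 358, and ZNF568 and ZNF829 one of 277 fragments. ZNF296 had the highest number of all members with 515 fragments, but the summit lay at −2750 bp from its start and the peak was also the strongest peak of GEMIN7 and MARK4. For such peaks, the gene that the signal belongs to cannot be told apart.

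Summits of the members lay close to the start sites. The median distance from summit to the nearest transcript start was 109 bp, against 330.5 bp in the other genes of chromosome 19. Among called peaks, 92 of 161 members (57.1%, 49.4% to 64.5%) and 238 of 580 other genes (41.0%, 37.1% to 45.1%) had the summit within 100 bp of a start. In ZNF genes of other chromosomes the share was 58.9%.

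At the other end, 70 members had a peak that was not called and 9 had none near a start. The 9 were ZNF99, ZNF135, ZNF350, ZNF358, ZNF552, ZNF615, ZNF676, ZNF723 and ZNF729, and ZNF350, ZNF358 and ZNF615 had no listed peak in the gene body either. The members just above the threshold were ZNF554 with 11 fragments (−log10 p 5.26), ZNF845 with 9 (5.15) and ZNF730 with 9 (5.03), and the summit of ZNF730 lay at −3141 bp from its start in a sequence found 260 times in the assembly. Just below were 4 members tied at the same value, ZNF304, ZNF665, ZNF749 and ZNF776, each with 8 fragments and a −log10 p of 4.90. At this depth 1 fragment therefore decides the call of such genes. An unlisted peak is not absence of binding, since the smallest listed peak of a member had 3 fragments.

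**Figure D2:**
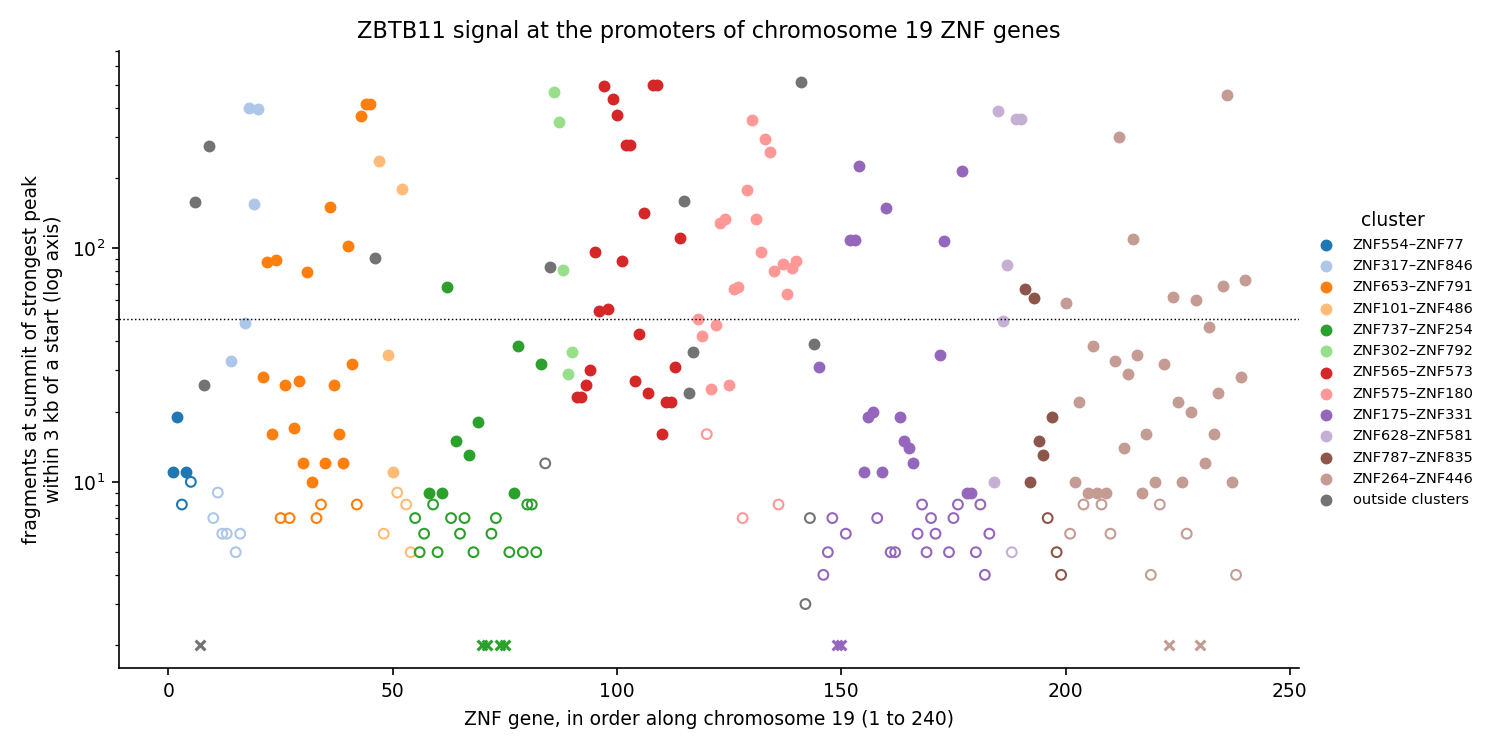
Fragments at the summit of the strongest ZBTB11 peak within 3 kb of a start (y axis, log) for each of the 240 ZNF genes in their order along chromosome 19 (x axis), coloured by cluster; filled points are called at a p-value of 1e-05 or less, open points are not, crosses drawn below the axis range of the data are the 9 genes without a peak, and the dotted line marks 50 fragments. High points stand together in ZNF565–ZNF573 and ZNF575–ZNF180, whereas ZNF737–ZNF254 has 1 member above the line.

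The members form 12 clusters of at least 5 genes with no gap over 250 kb, which hold 226 of them, and the clusters differed widely. ZNF565–ZNF573 (chr19:36182276-37817300) had 24 of 24 members called with a median of 54.5 fragments, from 16 in ZNF793 to 498 in ZNF569 and ZNF570. ZNF302–ZNF792 had 5 of 5 called with a median of 81 fragments. ZNF575–ZNF180 (chr19:43525497-44500524) had 20 of 23 called (87.0%, 67.9% to 95.5%) with a median of 80 fragments, and the uncalled members were ZNF428 with 16, ZNF223 with 7 and ZNF233 with 8 fragments. These 3 clusters lie in the stretch of raised background, and at a fold enrichment of 5 or more they kept 15, 5 and 17 members.

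Among clusters outside that stretch, ZNF628–ZNF581 had 6 of 7 members called with a median of 85 fragments, and ZNF653–ZNF791 had 20 of 25 called with a median of 26. ZNF264–ZNF446, at the end of the long arm, had 31 of 41 called (75.6%, 60.7% to 86.2%) with a median of 16. The lowest share was in ZNF737–ZNF254 (chr19:20535825-24129968), next to the centromere, where 9 of 29 members were called (31.03%, 17.3% to 49.2%). Its median was 7 fragments and its highest value 68 in ZNF708, and 4 of its members had no peak near a start. ZNF175–ZNF331 (chr19:51571283-53580269) was also low at 18 of 39 (46.2%, 31.6% to 61.4%) with a median of 8 fragments, but it held ZNF616 with 224, ZNF677 with 214 and ZNF528 with 148 fragments.

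**Figure D3:**
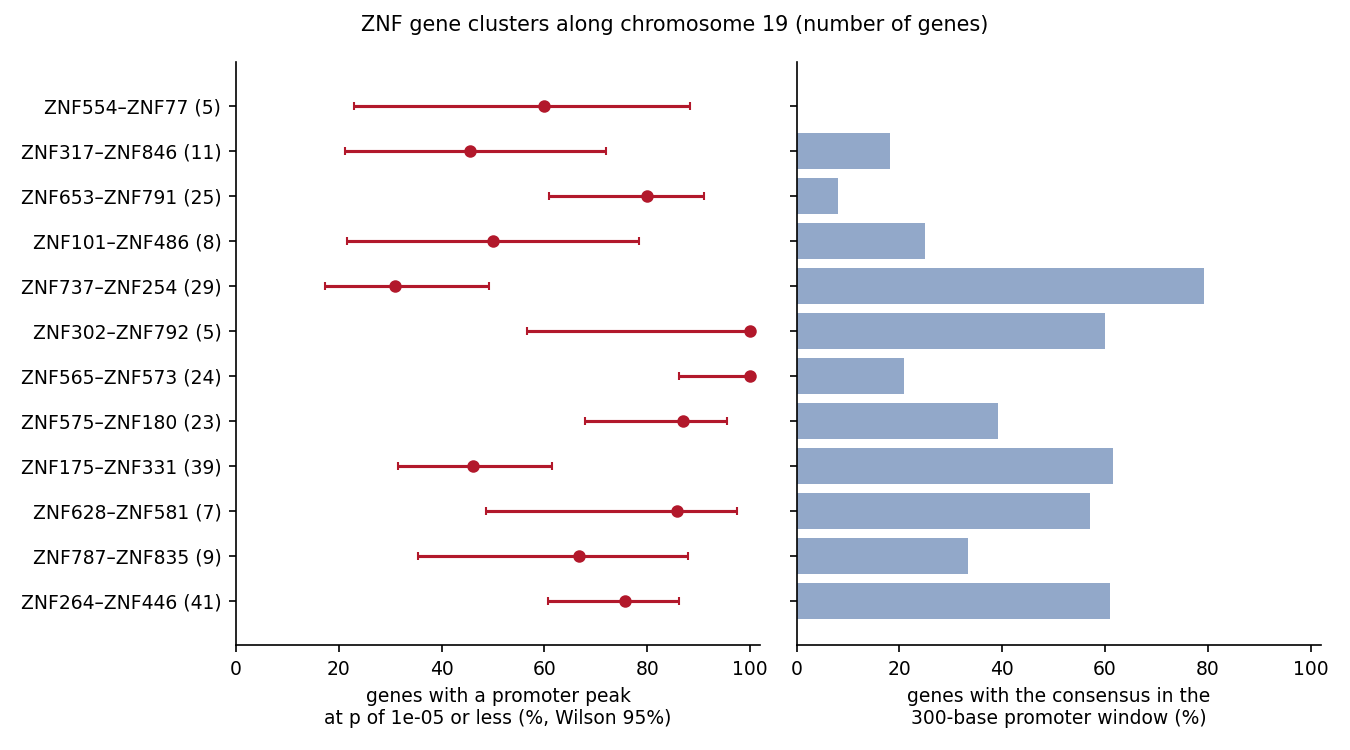
For each of the 12 clusters in their order along chromosome 19 (number of genes in brackets), the left panel gives the share of genes with a promoter peak at a p-value of 1e-05 or less (%, points, with Wilson 95% intervals over genes) and the right panel the share with CCGGAAG in the 300-base window around the canonical start (%, bars). ZNF737–ZNF254 has the lowest share called, 31.03%, and the highest bar, with the word in 23 of 29 windows, and ZNF565–ZNF573 has all 24 genes called with the word in 5.

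The consensus was then searched on both strands. As it came from high peaks of the same data, an excess at summits, and above all at high ones, does not test it. Its CAGGAAG form lay within 50 bp of the summit in 11 of the 224 distinct promoter peaks (4.91%, 2.76% to 8.58%). In equal windows 500 bp to either side the share of CAGGAAG was 3.57%, inside that interval. CCGGAAG lay within 50 bp of the summit in 54 of the 224 distinct promoter peaks (24.1%, 18.97% to 30.1%) and in 1.56% of equal windows 500 bp to either side. It was the leading word among all 7-base words in these windows. In the other genes of chromosome 19 it was found at 97 of 884 summits (11.0%, 9.08% to 13.2%), and in the ZNF genes of other chromosomes at 41 of 222 (18.5%, 13.9% to 24.1%), an interval that overlaps that of the members. Among summits of at least 50 fragments the shares were 40.3% (29.4% to 52.3%) in the members and 37.1% (30% to 44.8%) in the others, whereas among summits of 8 to 49 fragments they were 22.6% (15.7% to 31.5%) and 7.73% (5.63% to 10.5%). At under 8 fragments, 3 of 51 member summits (5.88%) held it.

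Whether or not a peak was there, many ZNF promoters contained the word. In RefSeq promoters of GRCh38.p14, taken from 250 bases upstream to 50 downstream of the start, CCGGAAG was in 93 of the 210 members that had an entry (44.3%) and in 10.3% of all 35116 promoters. Those promoters outnumber the 20033 protein-coding genes, so they are not a like set. In the same window around the GENCODE canonical start, 105 members (43.8%) and 191 of the 1236 other genes of chromosome 19 (15.5%) had CCGGAAG. Of these members 74 were called (70.5%, 61.2% to 78.4%), against 87 of 135 without it (64.4%, 56.1% to 72.0%). In the other genes of chromosome 19, 158 of 191 with it (82.7%, 76.7% to 87.4%) and 422 of 1045 without it (40.4%, 37.4% to 43.4%) were called. Because the strongest peak of a gene can lie at another of its starts, the count was repeated with peaks that overlap the 300-base window itself. Then 70 of the 105 members with the word (66.7%, 57.2% to 74.95%) and 81 of the 135 without it (60%, 51.6% to 67.9%) were called, against 78.5% (72.2% to 83.8%) and 23.3% (20.9% to 26.01%) of the other genes.

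The members' shares pool clusters that differ both in how many genes were called and in how many hold the word. In ZNF175–ZNF331, 14 of 24 members with the word (58.3%, 38.8% to 75.5%) and 2 of 15 without it (13.3%, 3.74% to 37.9%) were called from peaks over the window. In ZNF264–ZNF446 the numbers were 21 of 25 (84%, 65.3% to 93.6%) and 9 of 16 (56.2%, 33.2% to 76.9%), and in ZNF737–ZNF254 they were 6 of 23 (26.1%, 12.5% to 46.5%) and 0 of 6 (0% to 39.03%). Of the members outside these 3 clusters, 29 of 33 with the word (87.9%, 72.7% to 95.2%) and 70 of 98 without it (71.4%, 61.8% to 79.4%) were called. The share was thus higher with the word in each of these groups, but the intervals overlapped in all of them except ZNF175–ZNF331. The members outside the 3 clusters include the 57 of the stretch of raised background, of which 94.7% were called within 3 kb of a start. The word and the stretch were not separated in that group. In ZNF565–ZNF573, which lies in the stretch, all 19 members without the word were called within 3 kb of a start.

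The place of the word differed between clusters. In 83 of the 105 windows (79.05%, 70.3% to 85.7%) the nearest CCGGAAG was centred within 25 bp of the canonical start, against 79 of 191 windows of the other genes (41.4%, 34.6% to 48.4%). In ZNF737–ZNF254 it was within 25 bp in 21 of 23 windows and on the strand opposite to the gene in all 23, with a median position of −17 bp from the start. In ZNF175–ZNF331 it was within 25 bp in 23 of 24 windows and on the strand of the gene in all 24, with a median position of 7 bp. It was less tightly placed in ZNF264–ZNF446, with 18 of 25 windows within 25 bp, and in ZNF575–ZNF180, with 4 of 9. A listed peak covered the word in 93 of the 105 windows, and a called peak in 70.

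**Figure D4:**
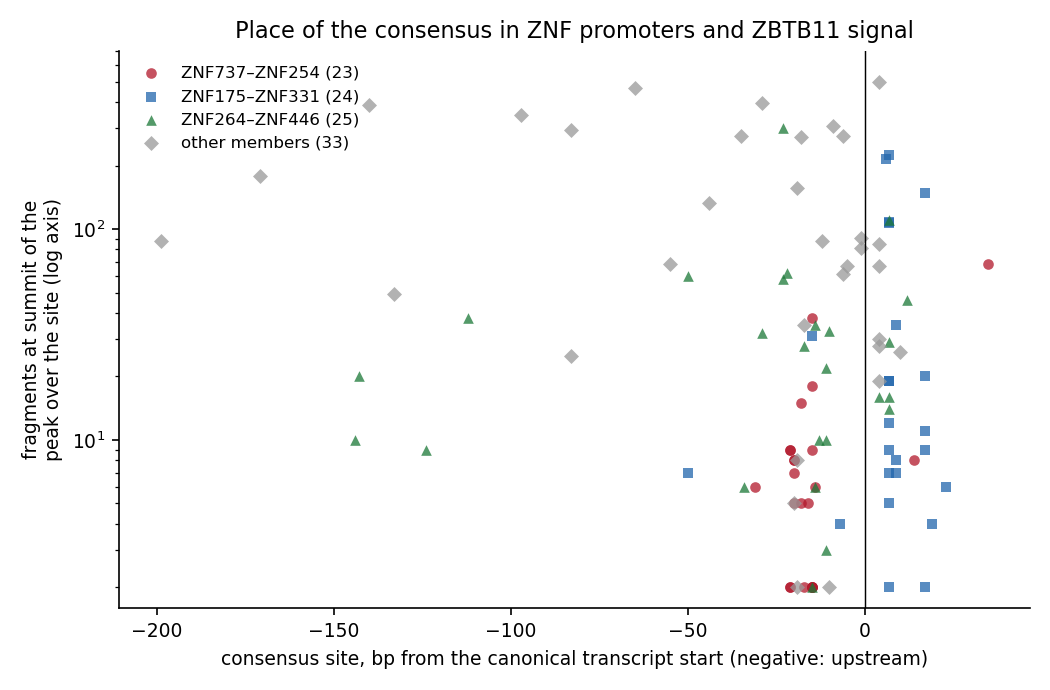
Position of the nearest CCGGAAG from the canonical transcript start (x axis, bp, negative is upstream) and fragments at the summit of the listed peak that covers it (y axis, log) for the 105 members with the word in the promoter window, by cluster; sites under no listed peak are drawn at 2. Most points of ZNF737–ZNF254 stand just upstream of the start with 5 to 38 fragments, and ZNF708 with 68 stands at 35 bp, while most of ZNF175–ZNF331 stand just downstream with 4 to 224.

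Some sites of these clusters, chosen after they were seen, are given to show how alike they can be and how the signal over them differed. Those of ZNF737–ZNF254 are shown on the strand of the word, from hg38, with the word in capitals. Brackets give the fragments at the summit of the listed peak that covers the site.
ZNF708 (chr19:21329361-21329390, plus strand, 68 fragments): ccgcgccaaacCCGGAAGccgccctgtccg
ZNF430 (chr19:21020622-21020651, minus strand, 8 fragments): ccccgccaaacCCGGAAGccgccctgtccg
ZNF724 (chr19:23250395-23250424, plus strand, 38 fragments): cccgccaaatcCCGGAAGccgccctgtccg
ZNF723 (chr19:22832259-22832288, minus strand, no peak over the site): cgcgccaaatcCCGGAAGccgccctgtccg
ZNF43 (chr19:21836189-21836218, plus strand, 9 fragments): cccgccacatcCCGGAAGccgccctgtcct
ZNF91 (chr19:23395478-23395507, plus strand, no peak over the site): ccagccacatcCCGGAAGccgccctgtccg

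The site of ZNF430 differed from that of ZNF708 at 1 of 30 bases, and the peaks over them had 8 and 68 fragments, with summits 145 and 30 bp away. The site of ZNF708 lay downstream of the annotated start, at 35 bp, as did that of ZNF675 at 14 bp with 8 fragments, whereas the site of ZNF430 lay at −20 bp. ZNF98 and ZNF492 had the same 30 bases, and no listed peak covered either.

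Chosen sites of ZNF175–ZNF331 follow in the same form.
ZNF677 (chr19:53254852-53254881, minus strand, 214 fragments): ttcctgccgacCCGGAAGcggatctcgcgg
ZNF816 (chr19:52962857-52962886, minus strand, 35 fragments): ttggcacagacCCGGAAGcggatggcgtgg
ZNF480 (chr19:52297172-52297201, plus strand, 20 fragments): ttcccacaaacCCGGAAGcggatcgcgtgg
ZNF808 (chr19:52527661-52527690, plus strand, 19 fragments): ttaacgcaaacCCGGAAGcggatcgggtgg
ZNF845 (chr19:53333742-53333771, plus strand, 9 fragments): ttcgcgcaaacCCGGAAGcggatcgcatgg
ZNF600 (chr19:52786753-52786782, minus strand, 6 fragments): cgcgcacaaacCCGGAAGcggatcgcgtgg
ZNF813 (chr19:53467738-53467767, plus strand, 4 fragments): ttcgcgaaaacCCGGAAGcggatcgcgtgg

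In all 7 of these sites, picked from the 24 of the cluster, CGGAT followed the word, while the bases around it differed at several places. The peaks over the 7 had from 4 to 214 fragments. Other bases followed the word in further sites of the cluster, among them ZNF616 with 224 fragments, ZNF528 with 148 and ZNF160 with 107. The summit was 57 bp away or less in ZNF677, ZNF816, ZNF808, ZNF845 and ZNF600, 120 bp away in ZNF813 and 297 bp away in ZNF480. ZNF808, which is known to silence retroelements in the developing pancreas, and ZNF611 shared all 30 bases and had 19 and 12 fragments over the site.

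Copied sequence and few CpG went with the lower of these clusters and not with the other. In ZNF737–ZNF254 a median of 8.52% of the 31-base words of the promoter window occurred more than once in the assembly, against 0.370% in ZNF175–ZNF331 and 0% over all members, and 5 of its 25 promoter summits lay in a sequence with copies. The median number of CpG in its windows was 10, against 24 in ZNF175–ZNF331 and 20 over all members. Over the whole set, 6 of 17 members with fewer than 10 CpG were called (35.3%, 17.3% to 58.7%), and 26 of 33 with 30 or more (78.8%, 62.2% to 89.3%). In the other genes of chromosome 19 the same classes gave 14.3% and 61.2%, but the rise was not steady, with 68.1% at 20 to 29 CpG. With called peaks counted only where the summit sequence was single-copy, 156 members remained called (65.0%). The part of copies, CpG content or chromatin in the low values was not tested.

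Summits of ZNF575–ZNF180 often held another word. TTCCCAG, on either strand, lay within 50 bp of the summit in 27 of the 224 distinct promoter peaks of the members (12.1%, 8.42% to 17.0%), in 4.02% of the windows 500 bp away and in 35 of 884 summits of the other chromosome 19 genes (3.96%, 2.86% to 5.46%). It was found in 9 of the 23 summits of ZNF575–ZNF180 and in 8 members of ZNF565–ZNF573. In RefSeq promoters it was in 61 of the 210 members (29.05%) and in 10.8% of all 35116, which again are not a like set. The word is part of a longer sequence that ZNF143, a zinc finger activator of transcription, is known to recognise. A form of this longer sequence lay within 50 bp of the summit in 6 of the 224 distinct promoter peaks (2.68%, 1.23% to 5.72%). It was in 0.223% of the windows 500 bp away and in 7 of 884 other chromosome 19 summits (0.792%). In ZNF575–ZNF180 it was found in 3 summits, against 9 with the word, so most of those 9 lacked it. RefSeq promoters held it in 31 of the 210 members (14.8%) and in 1.36% of all 35116. The word, like the longer form, was chosen after the summit sequences had been seen. The sites nearest the summit are given for the members of ZNF575–ZNF180 that held it and had over 80 fragments, with TTCCCAG in capitals.
ZNF224 (chr19:44094323-44094352, minus strand): tttggactccacTTCCCAGaattccccggg
ZNF226 (chr19:44164962-44164991, minus strand): ttggacctacagTTCCCAGgattccgcagg
ZNF227 (chr19:44212488-44212517, minus strand): cctgaactacccTTCCCAGaaggcccgcgc
ZNF225 (chr19:44113308-44113337, minus strand): tctggactacacTTCCCAGaattccctggg
ZNF221 (chr19:43951201-43951230, minus strand): tctggactacatTTCCCAGaattccccgga
ZNF45 (chr19:43935300-43935329, plus strand): tggaactacatTTCCCAGcatccccgggag
ZNF112 (chr19:44356696-44356725, plus strand): ctggactacgcTTCCCAGaattcccgacgg

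Their peaks had 353 fragments in ZNF224, 294 in ZNF226, 257 in ZNF227, 134 in ZNF225, 133 in ZNF221, 128 in ZNF45 and 86 in ZNF112. Both words lay near the summit in 4 members, ZNF181, ZNF221, ZNF461 and ZNF579. The 250 bases upstream of the RefSeq start of ZNF224, a known repressor of transcription, held TTCCCAG on either strand at 3 places and no CCGGAAG, and are printed with those words in capitals.
ZNF224 (GRCh38.p14, chr19:44094111-44094360, plus strand): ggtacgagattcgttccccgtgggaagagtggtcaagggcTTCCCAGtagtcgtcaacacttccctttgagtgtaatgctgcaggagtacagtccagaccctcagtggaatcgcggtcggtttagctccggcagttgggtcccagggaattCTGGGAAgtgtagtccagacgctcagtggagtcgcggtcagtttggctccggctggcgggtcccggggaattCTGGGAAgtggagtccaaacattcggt

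For comparison, the same stretch of ZNF91, known to silence SVA retrotransposons, held both words. No listed peak covered its CCGGAAG, and its strongest peak within 3 kb of a start, with 5 fragments, lay near another of its starts.
ZNF91 (GRCh38.p14, chr19:23395472-23395721, minus strand): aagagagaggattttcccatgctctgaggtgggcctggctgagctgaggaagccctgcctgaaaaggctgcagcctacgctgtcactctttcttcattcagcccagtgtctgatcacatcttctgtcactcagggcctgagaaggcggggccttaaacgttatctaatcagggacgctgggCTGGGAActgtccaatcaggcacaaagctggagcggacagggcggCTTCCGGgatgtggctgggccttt

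Away from the starts the picture was different. A peak in the rest of the gene body, more than 3 kb from every start of the gene, was listed for 169 members (70.4%), against 63.9% of all protein-coding genes, but 7 were called (2.92%, 1.42% to 5.90%), against 6.57% of all protein-coding genes and 104 of the other genes of chromosome 19 (8.41%, 6.99% to 10.1%). The difference was −5.50 points (−7.75 to −2.20). In the 163 members with both kinds of peak, the median was 19 fragments near the start and 5 in the body.

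The called body peaks were 6 distinct peaks. The largest, in an intron of ZNF586, had 90 fragments (−log10 p 82.9), more than the 32 of that gene's own promoter, and its summit lay 27 bp from a start of ZNF587B. The next, in an intron of ZNF814, had 22 fragments (−log10 p 18.5) and lay 43 bp from a start of ZNF587. Both summits thus stood at the start of a neighbouring zinc finger gene, inside the annotated span of another. The other 4 peaks lay over 1 kb from the start of any other gene. They had 14 fragments in ZNF709, 13 in an intron that ZNF345 and ZNF829 share, 10 in ZNF557 and 10 in ZNF700.

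Of the 7 members with a called body peak, 0 had its summit in the last exon (0% to 35.4%), against 12 of 104 other genes of chromosome 19 (11.5%) and 60 of 1310 of all other protein-coding genes (4.58%), which an interval this wide cannot separate. Over all listed body peaks, the strongest had its summit in the last exon of the canonical transcript in 39 of 169 members (23.1%, 17.4% to 30%), in an intron in 127, in another exon in 1 and outside the gene in 2. In the other genes of chromosome 19 the last exon held 60 of 549 (10.9%, 8.59% to 13.8%), a difference of 12.1 points (5.75 to 19.4), and in ZNF genes of other chromosomes 33 of 171 (19.3%). Last exons of the members are long, with a median of 3354.5 bp against 739 bp, and took 12.9% of the searched body bases against 5.95%. Counting all body peaks, there were 0.134 peaks per kb in the last exons of members and 0.0976 elsewhere in their bodies, a ratio of 1.38 (Poisson interval 1.11 to 1.71). The same ratio was 1.13 (0.943 to 1.34) in the other genes of the chromosome and 1.25 (1.02 to 1.53) in ZNF genes elsewhere. Their last exons had 0.130 and 0.140 peaks per kb, close to the members, and the rest of their bodies had 0.115 and 0.112. The larger ratio of the members thus went with a lower density outside the last exon. A peak that overlaps more than 1 gene was counted for each.

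The last-exon peaks were weak throughout, with 3 to 14 fragments and a median of 5. The largest were 12 fragments in ZNF181 (−log10 p 4.58), 14 in ZNF146 (4.34), 7 in ZNF823 (3.78), 11 in ZNF260 (3.45) and 7 in ZNF799 (3.36), followed by ZNF555, ZNF564, ZNF256 and ZNF347 with 6 each and ZNF235 with 10. The central 31 bases of the summit in ZNF260 occurred 1150 times in the assembly, and 7 of the 39 last-exon summits had copies. Of the 39 summits, 15 (38.5%, 24.9% to 54.1%) lay in coding sequence, which made up 38.5% of the searched last-exon bases. With the q-value threshold of 0.05, which 19 members passed in the body (7.92%, against 16.8% of all protein-coding genes), 2 of the 19 strongest peaks were in the last exon. At this depth, last-exon binding was not detectable in any single gene at the threshold used.

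**Figure D5:**
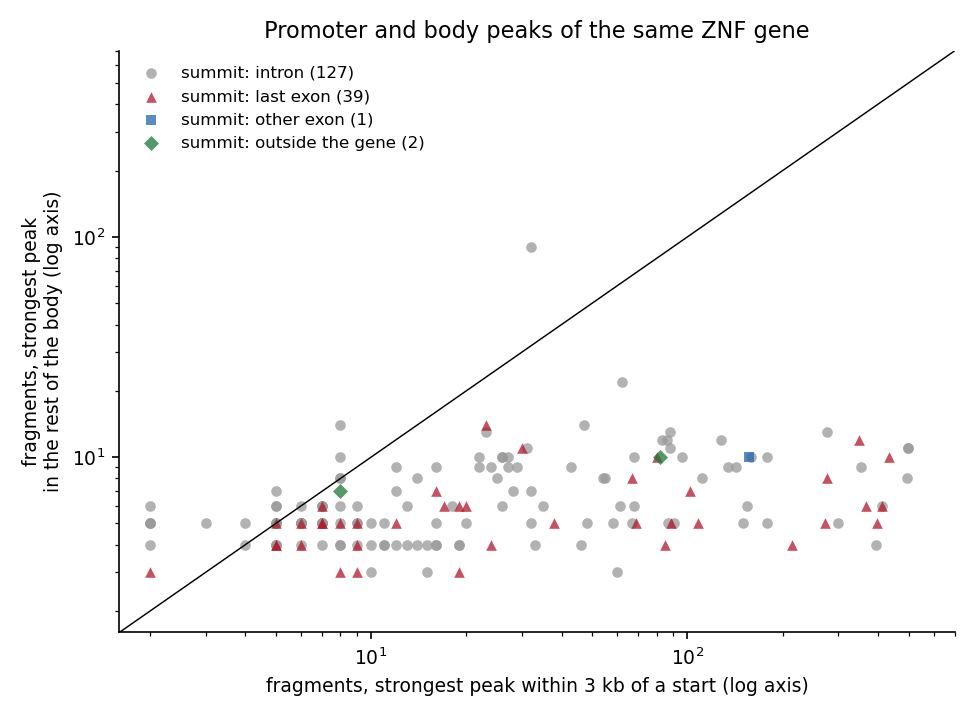
Fragments at the strongest ZBTB11 peak within 3 kb of a start (x axis, log) and in the rest of the body (y axis, log) of the same gene, for the 169 members with a body peak, marked by the place of the body summit; genes without a promoter peak are drawn at 2 on the x axis, and the line marks equal values. Body peaks stay at 14 fragments or fewer except for ZNF814 with 22 and ZNF586 with 90, which lie at the starts of ZNF587 and ZNF587B.

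Protein features, as counted by sequence patterns, did not sort the genes clearly. With the planned KRAB pattern, 63 of 88 KRAB genes (71.6%, 61.4% to 79.96%) and 98 of 152 others (64.5%, 56.6% to 71.6%) were called. That pattern found no KRAB box in ZNF737–ZNF254, whereas a wider one, added later, found 20 there and gave 99 of 151 (65.6%, 57.7% to 72.7%) and 62 of 89 (69.7%, 59.5% to 78.2%). The direction thus turned with the pattern. Either pattern can miss a KRAB box, so genes without a match are not known to lack one. ZNF93 and ZNF420, for example, matched neither pattern. The comparison therefore cannot show whether KRAB genes differ from others. Of members with more than 12 fingers, 80 of 116 (69.0%) were called, and of those with 12 or fewer, 81 of 124 (65.3%). Their strongest body peak was in the last exon in 25 of 84 (29.8%) and 14 of 85 (16.5%), respectively. Since fingers are usually encoded by the last exon, its length may differ between these classes. The share of searched bases in the last exon was not taken for each class, so the number of fingers and that length cannot be told apart.

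Of 11 members with a well known role, 7 were called (63.6%), close to the 67.1% of all members and against 46.9% of all protein-coding genes. ZNF224 had 353 and ZNF568, which in mouse silences a placental transcript of Igf2, had 277 fragments. ZNF582 had 61, ZNF382 54, ZNF274 46, ZNF420 27 and ZNF808 19. The uncalled ones were ZNF93, which silences L1 retrotransposons, with 9, ZNF675 with 8, ZNF331 with 6 and ZNF91 with 5 fragments. Of the genes for the partners through which KRAB proteins act, 12 of 16 were called, against 46.9% of all protein-coding genes, and all 16 had a listed peak near a start, as 87.7% of all protein-coding genes did. DAXX had 202, SETDB1 100 and PPHLN1 84 fragments, while TRIM28, the KRAB corepressor itself, had 5 and was not called.

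IgG could be set beside ZBTB11 at 32 ZNF genes of chromosomes that both lists cover. There, ZBTB11 was called at 22 (68.8%, 51.4% to 82.0%), with a median of 20 fragments and a highest value of 320 in ZNF669, against 43.8% of the 3042 other protein-coding genes of these chromosomes. IgG was called at 1 of the 32 (3.12%, 0.554% to 15.7%), ZNF487 with 10 fragments against 58 for ZBTB11, and 1.94% of the other genes were called. ZNF669 had no IgG peak near a start, and ZNF670 had 203 ZBTB11 and 7 IgG fragments. In the gene bodies of these 32 genes, the strongest peak was in the last exon in 2 of 18 for ZBTB11 and 4 of 20 for IgG (9.26% and 7.56% in the other genes), with highest values of 65 and 10 fragments, and 1 and 2 body peaks were called. On chromosome 19 the IgG list held no peak, and no other control signal was used here.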

How the data were processed

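Libraries were from NCI-H1299 chromatin, and groups were taken from the sample titles. According to the methods, the authors used BWA for alignment of the paired reads (hg38) and MACS for peaks, run once per antibody at a p-value below 0.05. The deposited fold enrichment (ratio of summit to local background), −log10 p and −log10 q belong to each peak. The deposited score is 10 times the −log10 p, truncated, and was not used. Read totals per library are not part of the lists, so depth is known only through the fragments at each summit. The layout of the lists is that of later MACS releases, so the release is uncertain. Summit fragments were solved from fold enrichment and p-value under a Poisson background with a pseudocount of 1, within 0.001 of the −log10 p for 100% of peaks.

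Genes came from GENCODE release 44. For each gene, the peak with the largest −log10 p within 3 kb of any transcript start, and the largest in the rest of the body, were taken with Python (numpy 2.4.6, pandas 2.3.3, scipy 1.17.1) and checked on simulated data. Fingers and KRAB boxes were counted in translated canonical coding sequences, since RefSeq proteins, which were planned, were not used here. Copies were exact matches of the central 31 bases of a summit. Shares carry Wilson and differences Newcombe 95% intervals, which cover counting over genes only, and no test across replicates was possible with 1 library per antibody. Members and lists were chosen with earlier results of these data known. Named genes are the 10 largest promoter, body and last-exon peaks, the 3 nearest the threshold on each side, members without a promoter peak and a list of known roles. Further genes were named after their values were seen, to show the range of a cluster, shared peaks and sites. Also chosen then were the raised-background stretch and the motif words other than CCGGAAG and CAGGAAG. So were the promoter-window splits, the peaks over single sites and the wider KRAB pattern.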

Additional observations from a re-analysis of the deposited data

How the results depend on the processing

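Of 42 alternative settings over 7 results, 26 stayed within the interval of the main value, 14 moved beyond it and 2 changed sign, and 12 of the settings were chosen after the data were seen. The share of members with a promoter call (67.1%) was 96.2% over all listed peaks, 74.6% at a q-value of 0.05 or less, 30% at 50 fragments or more, 58.5% outside and 94.7% inside the stretch of raised background, and 50.4% at a fold enrichment of 5 or more. Its difference from the other genes of chromosome 19 (20.2 points) was 11.0 over all listed peaks, 12.2 at 50 fragments or more and 36.1 inside that stretch, and it turned to −4.10 points when the comparison was with ZNF genes of other chromosomes. The share with a called body peak (2.92%) was 7.92% at a q-value of 0.05 or less and 7.92% when the body was set by the canonical start only. The last-exon share (23.1%) was 10.5% at a q-value of 0.05 or less, from 2 of 19 peaks, and its difference from the other genes (12.1 points) turned to −0.654 there, with an interval of −10.2 to 20.6. The share of summits with CCGGAAG (24.1%) was 31.2% within 100 bp and 31.2% for peaks at a p-value of 1e-05 or less. The looser and stricter thresholds move the shares by their own construction, and the cause of the other changes was not tested. The calls nearest the threshold rest on 8 to 11 fragments, where 1 fragment can change the call. More fragments are needed where the local background is higher, as in ZNF536, uncalled with 12 fragments (−log10 p 4.73) over a background of 3.04. No paired analysis was possible because there is 1 library per antibody.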
